A study of Ambystoma mexicanum and Ambystoma andersoni and Ambystoma maculatum with 18 samples.

Results

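The limb tip of the spotted salamander, Ambystoma maculatum, was compared at 24 h after amputation and at amputation (0 h). Larval forelimbs were amputated midway along the zeugopod (the lower arm), and the 1 mm of tissue nearest the cut end was collected. The 24 h group and the 0 h group had 3 libraries each, and every library pooled tissue of 5 larvae. These are 6 of the 18 libraries of a study of 3 Ambystoma species whose title asks which expression changes after amputation the species share. The labels give no genotype, agent or larval age, so amputation and the time after it are the only stated differences between the groups. The features are all 474849 entries of the A. maculatum table, chosen without regard to their values. Of these, 27360 had enough counts to be tested, and 119951 were at 0 in all 6 libraries.

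After a salamander limb is cut, epidermal cells move over the stump and form a wound epidermis, and blood cells of the inflammatory response enter the tissue. Muscle, skeleton and connective tissue near the cut are then partly broken down, and cells released there later form the blastema, the bud from which the limb regrows. The sampled tip holds all these tissues together. A lower level of a feature can therefore come from fewer cells of a type or from less RNA per cell, and the data cannot tell these apart. Levels are also relative, so a share can fall when another feature takes more of the counts. A feature here is an assembled transcript group under an ID of a cluster number, a component number (c) and a number within the component (g). The files pair no ID with a gene name, and 0 of the 474849 IDs occurred in the RefSeq gene table used for names (assembly UKY_AmexF1_1 of A. mexicanum). Neither gene groups nor the markers of the labelled tissue could therefore be looked up.

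Library totals ranged from 8037090 to 14826773 expected counts, and the tested features held 97.1% to 99.1% of them. Expected counts are estimates in which a read that fits several features is split between them. Pearson's r of log2 CPM (counts per 1000000 of the library size after the scaling described below) across tested features was 0.873 to 0.892 among the 24 h libraries, 0.936 to 0.961 among the 0 h libraries and 0.675 to 0.799 between the times. These are correlations across features, which are not independent replicates. The spread between libraries was wider at 24 h, its common biological coefficient of variation being 42.5% at 24 h and 22.9% at 0 h. Nothing in the labels says how the pools of a group were drawn. The p-values therefore rest on the spread between the 3 pools of each group, which may understate that between animals. The edgeR tests of features below used the same spread for a feature at both times, although it was wider at 24 h.

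One feature, Mac_TR149098_c7_g3, took a far larger part of the counts at 24 h. It held 44.4%, 64.5% and 51.9% of all counts in 24 h libraries 1, 2 and 3, against 23.7%, 20.7% and 24.9% in the 0 h libraries. The times did not overlap, and the difference was 30.5 percentage points (two-sided exact permutation p = 0.1, the smallest that 3 against 3 can give; Benjamini-Hochberg p = 0.3 over 3 library measures). Its component holds 3 features, and these are among the most abundant of the table. Another member, Mac_TR149098_c7_g1, held 2.50%, 2.68% and 2.15% of all counts in the 24 h libraries and 1.23%, 1.31% and 1.55% in the 0 h libraries. The remaining member held 3.05%, 4.02% and 2.94% at 24 h and 2.47%, 2.13% and 2.38% at 0 h. All 3 members were thus higher in every 24 h library than in any 0 h library. Together they took 59.3% ± 10.8 of the counts at 24 h and 26.8% ± 2.37 at 0 h (SD, n = 3 each).

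**Figure D1:**
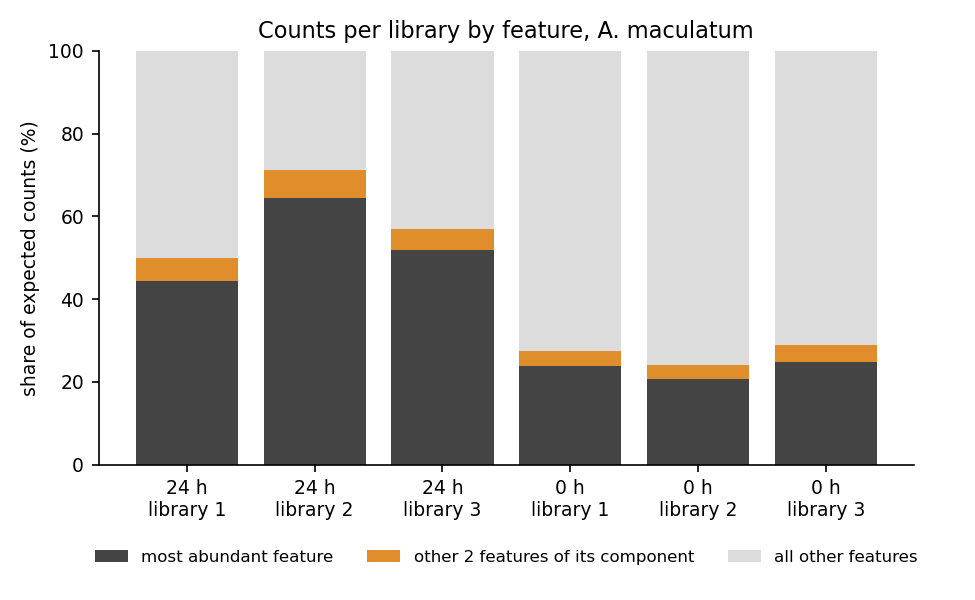
Share of all expected counts (y axis, percent) in the most abundant feature, in the other 2 features of its component and in all other features, for each of the 3 libraries at 24 h and at 0 h (x axis). The dark part covers 44.4% to 64.5% of the 24 h libraries and 20.7% to 24.9% of the 0 h libraries.

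The proportions within this component differed between the times. For every 100 counts of the most abundant feature, the unnamed member had 6.88, 6.24 and 5.67 counts at 24 h and 10.4, 10.3 and 9.58 counts at 0 h, with no overlap. Mac_TR149098_c7_g1 had 5.63, 4.15 and 4.14 counts per 100 at 24 h and 5.16, 6.31 and 6.22 at 0 h, which overlap. In the edgeR quasi-likelihood test with Benjamini-Hochberg adjustment, Mac_TR149098_c7_g3 had a log2 fold change of 2.26 (SE 0.80, adjusted p = 0.073) and did not pass. It passed in 4 of 13 alternative fits. These were the fits without 24 h library 1 or 3 (edgeR adjusted p = 0.033 and 0.031), with no filter on low counts (2.2e-08) and the DESeq2 test (DESeq2 adjusted p = 2.1e-06). Without 24 h library 2 the log2 fold change was 1.61 (edgeR adjusted p = 0.18). Without 0 h library 1, 2 or 3 the edgeR adjusted p was 0.19, 0.29 and 0.092. On library totals the log2 fold change was 1.20 (edgeR adjusted p = 0.071). With the newer quasi-likelihood method the edgeR adjusted p was 0.77. The unnamed member had 1.56 (SE 0.55, adjusted p = 0.071) and did not pass either. The sum over the component did pass, at a log2 fold change of 2.18 (SE 0.68, adjusted p = 0.044). Most of this sum is Mac_TR149098_c7_g3 itself, whose mean share at 24 h was 53.6% of all counts, against 59.3% for the component. Whether the sum also passes in the alternative fits was not examined. Near-identical features can trade counts in the estimate, and the sum does not depend on how reads were divided within the component. Whether the division of reads bears on the result for Mac_TR149098_c7_g3 was not tested.

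How the calls divided into rises and falls depended on whether this feature was counted in the scale. No feature called both with TMM, the scaling described below, and on another scale changed its direction, but which features passed moved. The fits used the same libraries, so this agreement in direction is not independent support. Scaled to library totals alone, 7163 of 27360 features passed, of which 752 rose and 6411 fell, so that 10.5% of the calls were rises. Across all tested features the median log2 fold change was then -0.86. With the most abundant feature left out of the same totals, 2054 rose and 2679 fell (43.4% rises) and the median was -0.11. With the whole component left out, 2661 rose and 2446 fell (52.1% rises) and the median was 0.02. The excess of falls on library totals was therefore not present once this component was removed from the totals.

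**Figure D2:**
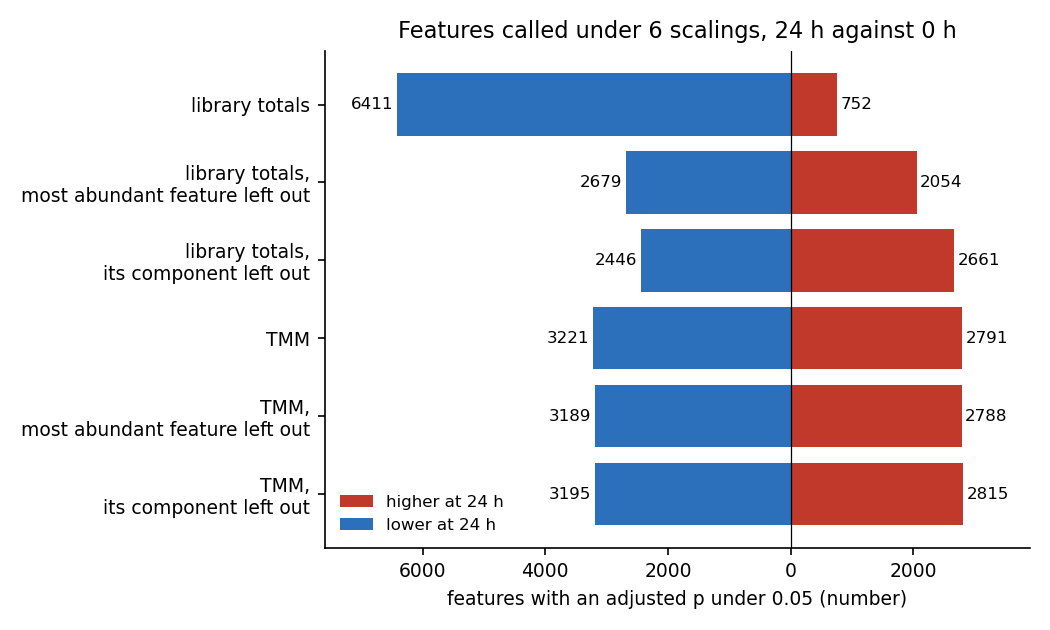
Number of features past an adjusted p of 0.05 (x axis) that were higher at 24 h (right) or lower at 24 h (left) under 6 scalings (rows). On library totals 752 rose and 6411 fell. In the other 5 scalings 2054 to 2815 rose and 2446 to 3221 fell.

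TMM, which scales libraries by the trimmed mean of their fold changes and so gives little weight to a few very large features, moved little with the feature in or out. It gave 2791 rises and 3221 falls with every feature, 2788 and 3189 without the most abundant one, and 2815 and 3195 without its component. The low-count filter was applied again in each case, and 5705 of the 6012 calls were made again, in the same direction, without the most abundant feature. The TMM factors themselves changed: they were 0.863, 0.462 and 0.970 at 24 h and 1.26, 1.37 and 1.50 at 0 h with the feature, and 0.943, 0.783 and 1.21 at 24 h and 0.959, 1.02 and 1.15 at 0 h without it. Without the feature the factors of the times overlapped. All levels and fold changes below are on the TMM scale with every feature kept, with levels as CPM of the TMM-adjusted library size.

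On that scale 6012 features passed an adjusted p of 0.05, 22.0% of those tested, with rises making up 10.2% and falls 11.8%. Falls went further than rises on this scale. Rises had a median log2 fold change of 1.67 (quartiles 1.20 and 2.52) and falls one of -2.52 (quartiles -3.54 and -1.54). On library totals the order turned, with medians of 2.56 among rises and -2.24 among falls. Log2 changes of 5 or more were found in 141 rises, and of -5 or less in 283 falls. However, 147 falls had no count in any 24 h library, and 11 rises had none in any 0 h library. The size of such changes rests on a small count added in the fit. The 141 and 283 are therefore not a fair comparison of how far rises and falls went. The features that rose had a median of 11.0 CPM at 24 h and 3.13 CPM at 0 h. Those that fell had a median of 1.27 CPM at 24 h and 6.58 CPM at 0 h. All 24 h libraries were above all 0 h libraries in 17.5% of tested features and below them in 22.6%. The medians of calls describe features selected by the same test.

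**Figure D3:**
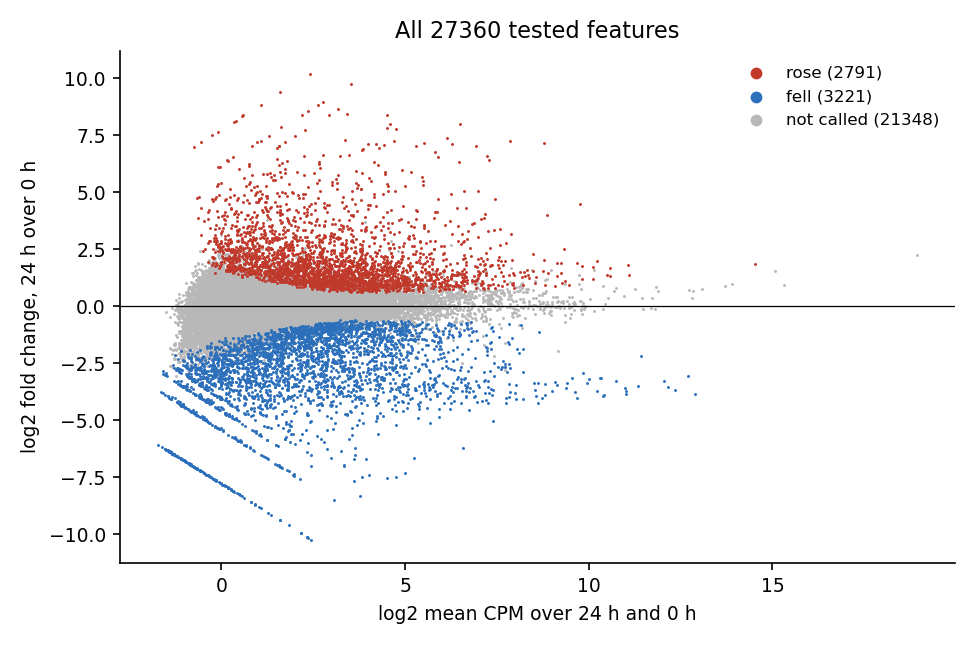
Log2 fold change of 24 h over 0 h (y axis) against log2 of the mean CPM of the times (x axis) for each of the 27360 tested features, coloured by the edgeR call. The 3221 falls have a median of -2.52 and the 2791 rises a median of 1.67. The diagonal lines of points at lower left are features with 0 or very few counts at 24 h.

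The number of calls leaned on single libraries more than its division into rises and falls did. Without the second 0 h library 3486 features passed, and without any 1 of the other libraries 4226 to 7405 passed. The share of rises among calls stayed between 44.4% and 47.1% in these 6 fits. Of the 3486 calls made without the second 0 h library, 3338 were among the 6012, all in the same direction. Among tested features, 147 had no count in any 24 h library and 11 had none in any 0 h library. All of these were called, but they passed the low-count filter only through the group in which they are high. No preference for losses can be read from these numbers, since the depth differed between the times, and none was tested. The TMM-adjusted library sizes were smaller at 24 h (5958951 to 13932322 counts, against 14994300 to 20424675 at 0 h).

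The share of features called differed with their level, taken as the mean of the times. Below 1 CPM 1.39% rose and 10.3% fell. The low-count filter used library totals before TMM scaling. A feature seen mainly at 24 h therefore needed a higher CPM to be tested than one seen mainly at 0 h. The part of this in the shares below 1 CPM was not tested. From 1 to 10 CPM, which held 16880 of the tested features, 9.39% rose and 10.6% fell. From 10 to 100 CPM 21.5% rose and 16.6% fell, and from 100 to 1000 CPM 23.1% rose and 19.9% fell. Among the 53 tested features of at least 1000 CPM 17.0% rose and 32.1% fell. The size of the called changes did not follow the level in one direction. From the lowest range to the highest, the median log2 fold change of falls was -3.50, -2.27, -1.90, -3.24 and -3.56. That of rises was 2.86, 1.84, 1.37, 1.52 and 1.69. Only called features enter these medians, and at low counts a change must be larger to pass. The part of this in the medians was not tested.

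The abundant features that rose differed between 24 h libraries by 1.07-fold to 3.39-fold (highest over lowest, median 1.76). There were 14 rises with a mean of at least 1000 CPM at 24 h, from 12 components, with log2 fold changes from 1.18 to 4.49 (median 1.74, edgeR adjusted p = 0.00047 to 0.025). Over all tested features 10.2% rose. The number of tested features at this level at 24 h was not counted, so the 14 cannot be set against that share. Together the 14 held 9.43% ± 0.994 of the counts left after the most abundant feature at 24 h and 3.13% ± 0.211 at 0 h (SD, n = 3 each). Mac_TR149098_c7_g1, of the dominant component, carried much of this sum, and the other 13 held 3.94% ± 0.813 at 24 h and 1.36% ± 0.0612 at 0 h (SD, n = 3 each). On library totals the median log2 fold change of the 14 was 0.85 and 2 of them passed. On totals without the most abundant feature it was 1.62 and 13 passed. Without the second 0 h library 4 of the 14 passed, although all 14 kept a positive sign in that fit, with a median of 1.67.

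The most abundant rise was Mac_TR149098_c7_g1, the companion of the most abundant feature. It had 29328, 58504 and 22647 CPM in the 24 h libraries, against 9972, 9758 and 10619 CPM in the 0 h libraries. The 24 h libraries differed among themselves and yet all lay above the 0 h libraries, which were nearly level. Its log2 fold change was 1.86 (SE 0.50, edgeR adjusted p = 0.025). The call ended without 0 h library 1, 2 or 3 (edgeR adjusted p = 0.094, 0.13 and 0.054) or the second 24 h library (0.083). It ended too with the newer quasi-likelihood method (0.22) and on library totals (log2 fold change 0.83, edgeR adjusted p = 0.17).

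The next rise was Mac_TR43407_c4_g1, with 5154, 2371 and 2506 CPM in the 24 h libraries, against 1237, 820 and 820 CPM in the 0 h libraries. The first 24 h library was the highest, and the times did not overlap. The log2 fold change was 1.80 (SE 0.40, edgeR adjusted p = 0.011). As a share of the counts left after the most abundant feature it took 0.789%, 0.305% and 0.493% at 24 h and 0.199%, 0.139% and 0.159% at 0 h. As a share of all counts the second 24 h library, at 0.109%, was below all 0 h libraries (0.110% to 0.152%). On library totals the log2 fold change was 1.03 (edgeR adjusted p = 0.14), and without the second 0 h library it was 1.69 (edgeR adjusted p = 0.072). All 5 tested features of its component rose, by log2 fold changes of 1.39 to 1.97 (edgeR adjusted p = 0.0056 to 0.015), and so did their sum (1.76, SE 0.39, edgeR adjusted p = 0.009). Over all tested features 10.2% rose. The component was reached through a called rise and its members can share reads, so these calls are not independent support.

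The abundant features that fell did so by large amounts, and in one 24 h library they were far lower than in the others. There were 25 falls with a mean of at least 1000 CPM at 0 h, from 22 components, with log2 fold changes from -4.02 to -2.19 (median -3.50, edgeR adjusted p = 0.00059 to 0.036). Over all tested features 11.8% fell. The number of tested features at this level at 0 h was not counted, so the 25 cannot be set against that share. Together the 25 held 0.324%, 1.84% and 2.39% of the counts left after the most abundant feature in the 24 h libraries, against 18.0%, 18.2% and 16.0% in the 0 h libraries. The first 24 h library was the lowest of the 24 h libraries in all 25. In 19 of them it lay more than 4-fold below both other 24 h libraries. Without that library all 25 still passed (median log2 fold change -3.04). Without any 1 of the other 5 libraries 21 to 24 passed.

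**Figure D4:**
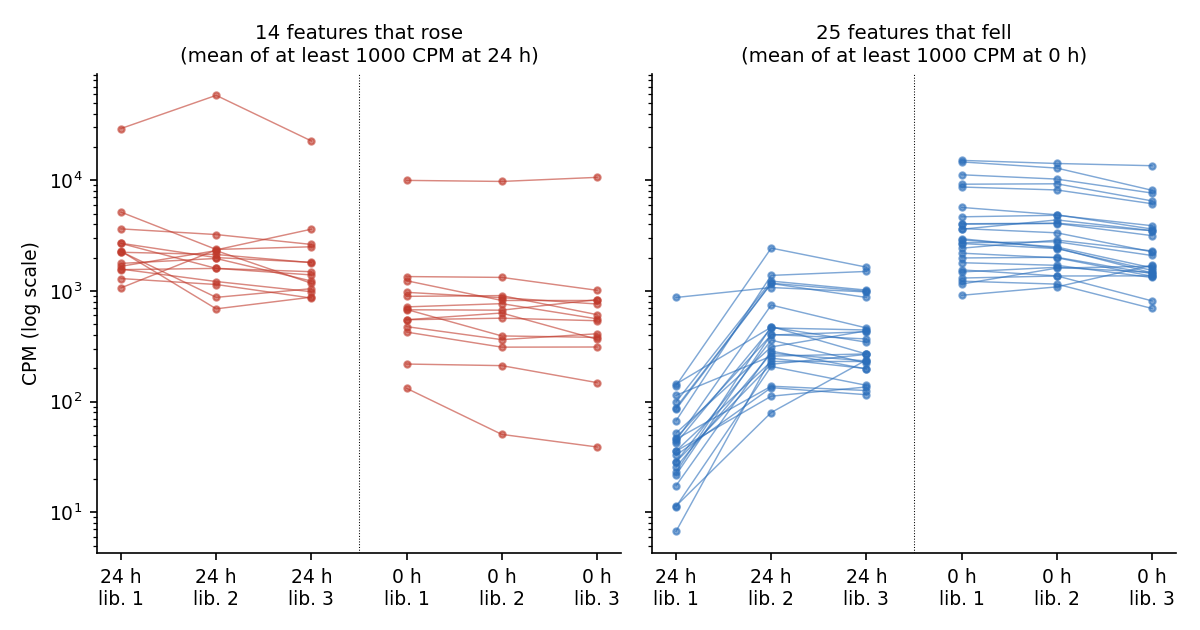
CPM on a log scale (y axis) in each library (x axis, 24 h left of the dotted line and 0 h right of it) for the 14 features that rose with a mean of at least 1000 CPM at 24 h and the 25 that fell with a mean of at least 1000 CPM at 0 h. Each feature is a line, broken between the times. The falls have a median of 41.9 CPM in the first 24 h library, against 359 and 270 CPM in the other 24 h libraries, while the rises have no such step.

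Mac_TR69875_c12_g1, the most abundant fall, had 67.1, 1381 and 1500 CPM in the 24 h libraries, against 15124, 14177 and 13534 CPM in the 0 h libraries. The 0 h libraries were nearly level, and the first 24 h library was far below the other 24 h libraries. The log2 fold change was -3.86 (SE 0.92, edgeR adjusted p = 0.015). It passed in all 17 alternative fits, with log2 fold changes from -4.77 to -3.32 and, without the first 24 h library, -3.32 (edgeR adjusted p = 0.00026). Mac_TR59372_c0_g1 had 140, 2438 and 1640 CPM in the 24 h libraries, against 14647, 12884 and 8117 CPM in the 0 h libraries. It shows the same low first 24 h library, and 0 h library 3 was lower than the other 0 h libraries. The log2 fold change was -3.08 (SE 0.84, edgeR adjusted p = 0.027). Without the first or second 0 h library or the third 24 h library the call ended (edgeR adjusted p = 0.068, 0.072 and 0.051).

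Over the falls as a whole the first 24 h library was also the lowest, though by much less than among the abundant falls. Among the rises it was not the lowest. Each library was set against the mean of the 0 h libraries on the log2 CPM scale. Over the 3221 falls, 24 h libraries 1, 2 and 3 had medians of -2.93, -2.20 and -1.89. Over the 2791 rises their medians were 1.73, 1.64 and 1.41. Over all tested features they were -0.10, -0.09 and 0.01. The first 24 h library was the lowest 24 h library in 72.4% of falls, in 20.7% of rises and in 39.5% of all tested features. It was the highest 24 h library in 46.3% of rises, in 16.3% of falls and in 31.2% of all tested features. Where 24 h libraries tied at 0, the feature was credited to the first of them in library order. Ties that include the first 24 h library were thus credited to it, so its shares can be too high. The number of such ties was not counted. Of the falls, 977, 617 and 189 were at 0 in 24 h libraries 1, 2 and 3, and 147 in all of these. These values describe features chosen with the same libraries, and the differences between 24 h libraries were not tested.

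**Figure D5:**
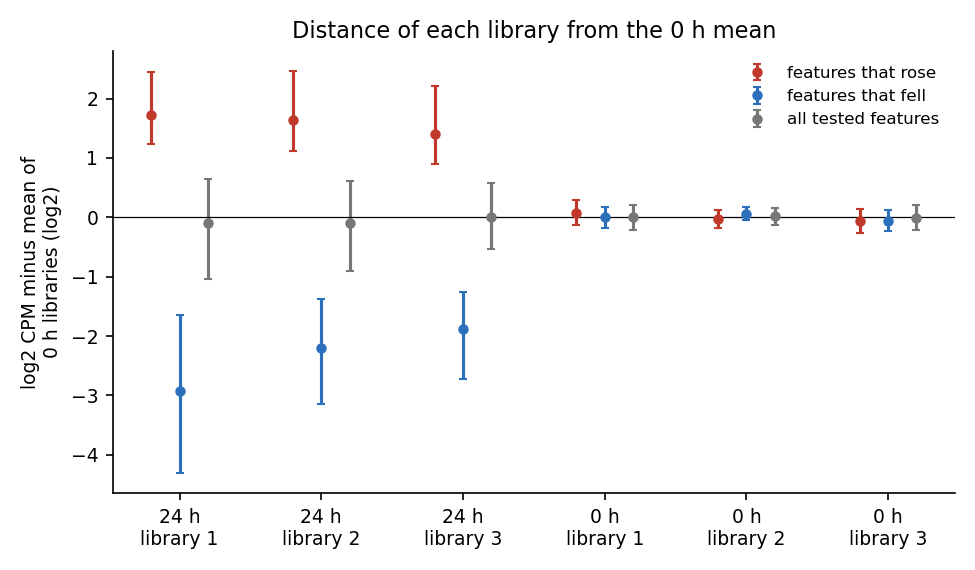
Log2 CPM of each library minus the mean of the 0 h libraries (y axis) for the features that rose, those that fell and all tested features, by library (x axis). Points are medians over features and bars run from the lower to the upper quartile. The falls lie at -2.93, -2.20 and -1.89 in the 24 h libraries and between -0.07 and 0.06 in the 0 h libraries.

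In 432 of the 3221 falls, 13.4%, the first 24 h library lay more than 4-fold below both other 24 h libraries. The same held for 13 of the 2791 rises and for 4.27% of all tested features. Against the 0 h mean these 432 features had medians of -5.74, -2.60 and -2.68 in the 24 h libraries. The other 2789 falls had -2.64, -2.09 and -1.76. The 432 made up much of the counts at 0 h. They held 0.199%, 2.13% and 2.80% of the counts left after the most abundant feature in the 24 h libraries, against 20.9%, 21.3% and 19.0% in the 0 h libraries. The other 2789 falls held 2.09%, 2.19% and 3.43% at 24 h and 10.1%, 11.2% and 11.8% at 0 h. Without the first 24 h library 431 of the 432 passed as falls (median log2 fold change -2.68). Without 24 h library 2 or 3 it was 393 and 406, and without 0 h library 1, 2 or 3 it was 344, 307 and 350, all 432 keeping a negative sign in each fit. The first 24 h library had the smallest total, 8037090 counts. Outside the most abundant feature it had 4469810 counts, and the second 24 h library had 4627441. Its TMM-adjusted size was 6841942 counts, above the 5958951 of the second 24 h library. The part of depth in its low values was not tested. Among the 25 abundant falls its lowest value was 6.72 CPM, and none of them was at 0 there.

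Called features of the same component changed in the same direction with few exceptions. Members that were not called were not compared. The tested features fell into 21885 components, of which 4129 held at least 2 and the largest held 13. At least 2 features were called in 649 components, with 1484 features between them. In 295 of these all called features rose, in 331 all fell, and in 23 both directions occurred, so 96.5% were of 1 direction. Features of a component share sequence and can share reads, so they are not independent of each other. With expected counts summed over each component, 5447 of 23563 components passed, 23.1%, of which 2557 rose and 2890 fell. Of the 6012 called features 5733 belonged to a component that passed. Without the second 0 h library 3360 components passed.

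Outside the most abundant feature the 24 h libraries differed more from each other in breadth than the 0 h libraries did. In the 24 h libraries 81, 30 and 220 features held 50% of these counts, against 102, 124 and 180 in the 0 h libraries. These counts include the other members of the dominant component. The times overlapped (difference -25 features, two-sided exact permutation p = 0.7, Benjamini-Hochberg p = 0.7), and without the second 24 h library the difference was 15.2. Without the 10 most abundant features the difference was 91.7. Thinned to 4469810 counts each, 72277, 76370 and 141221 features were above 0 at 24 h, against 99111, 105791 and 123370 at 0 h. The difference was -12801 features (exact permutation p = 0.6, Benjamini-Hochberg p = 0.7). The third 24 h library stood above all 5 others, and the first and second below all 0 h libraries. Without the third 24 h library the difference was -35101 features, and with at least 3 counts required of a feature it was 828.

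The sets of most abundant features at 24 h and at 0 h overlapped in part. Ranked by mean share outside the most abundant feature, the 10 leading features at 24 h and at 0 h had 5 in common. The 100 leading ones had 66 in common and the 1000 leading ones 689. Overlaps between libraries of the same time were not computed, so the part of spread within a time is not known. Of the 100 leading features at 24 h, 27 were called as rises and 6 as falls. Of the 100 leading ones at 0 h, 7 were rises and 35 were falls. Over all tested features 10.2% rose and 11.8% fell, and a ranking by the level at one time by itself favours features that are higher then. The features called as rises held 24.9%, 22.8% and 24.7% of these counts in the 24 h libraries, against 8.36%, 8.09% and 8.83% in the 0 h libraries. The falls held 2.28%, 4.32% and 6.23% at 24 h and 31.0%, 32.6% and 30.8% at 0 h. Without Mac_TR149098_c7_g1, the rises held 20.4%, 15.3% and 20.2% in the 24 h libraries and 6.75%, 6.44% and 6.77% in the 0 h libraries. The falls were lowest in the first 24 h library. These sums, like those of the abundant rises and falls above, are of features selected by the test on the same libraries. A higher share of rises and a lower share of falls at 24 h thus follows from the selection.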

How the data were processed

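RNA of 6 A. maculatum libraries was analysed, 3 at 24 h and 3 at 0 h. The authors deposited RSEM expected counts for each assembled feature, per the labels. The RSEM version, aligner and assembler are not stated in the sources used here. Per the labels, an Illumina TruSeq RNA kit was used and about 50000000 read pairs of 100 bp were aimed at. The 2 tables of the other species were not used, and 0 columns of the A. maculatum table were left unused.

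Expected counts were rounded to whole numbers. Features passed filterByExpr (minimum count 10, minimum total 15) and were tested with edgeR 4.0.16 in R 4.3.3 (TMM, glmQLFit with the older method, time as the only term, Benjamini-Hochberg over all tested features, threshold 0.05). Fold changes are 24 h over 0 h. Log2 CPM values of single libraries used a prior count of 2. Library measures were compared by exact permutation tests in SciPy 1.17.1. Thinning used 1 fixed seed. The fit was tested on simulated data with the same spread at both times. The simulation was not set up to hold the shift in the share of the most abundant feature. It therefore does not show how the fit handles that shift or the unequal spread. Replicates were distinct, with a chi-square of 7.45 to 54.0 per feature between libraries of a group (about 1 under sampling noise). It was taken on library totals with the most abundant feature kept, so differences in the share of that feature enter it. Alternatives were other scalings, DESeq2 1.42.0, other filters, the newer quasi-likelihood method and each library left out.

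Named features are the 2 called rises with the highest mean CPM at 24 h and the 2 called falls with the highest at 0 h, with a log2 change of at least 1 and no overlap of the times, plus the most abundant feature. The members, lists and tests were chosen with earlier results of these data known. The scalings without the whole component, the set of 432 falls and the limit of 1000 CPM were chosen after values had been seen.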

Additional observations from a re-analysis of the deposited data

How the results depend on the processing

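The share of rises among calls and which features passed depended on the scale. Every feature called both with TMM and in another of the fits across features kept its direction. These fits share libraries, and only features called in both were compared, so the agreement is not independent support. The share of rises, 46.4% with TMM, was 10.5% on library totals, 43.4% on totals without the most abundant feature and 52.1% on totals without its component. It was 37.2% with no filter on low counts and 49.7% among features of at least 5 CPM, where fewer features were tested and 3428 passed. Over all tested features the median log2 fold change, -0.01 with TMM, was -0.86 on library totals, -0.11 on totals without the most abundant feature and -0.54 with no filter. With upper quartile scaling, DESeq2 size factors, the DESeq2 test, the newer quasi-likelihood method or TMM without the feature or its component, 5933 to 6375 features passed.

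Leaving out 1 library gave 3486 to 7405 called features (rises 44.4% to 47.1%, median of all features -0.15 to 0.012) and 3360 to 6559 called components. Summed over the first number of the ID, 5118 groups passed. The difference in the share of the most abundant feature ranged from 25.0 to 35.0 percentage points. The difference in the number of features that hold 50% of the other counts ranged from -79.8 to 15.2, and was 91.7 without the 10 most abundant features. The difference in detected features ranged from -35101 to -629, and was 828 with at least 3 counts required. The cause of these reversals was not tested.

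No paired analysis was possible because the labels and columns carry no replicate numbers.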

Other observations

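The 23 components with called features in both directions were followed by their sums. The summed counts rose in 9, fell in 2 and did not pass in 12 (edgeR adjusted p at a threshold of 0.05). Over all tested components 2557 of 23563 rose and 2890 fell. The 23 were picked by calls made on the same libraries. In these 23 components called features changed against each other. Whether reads were divided differently between near-identical sequences at the 2 times was not tested.

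Expected counts of 20979 tested features (76.7%) were whole, within 1e-06, in all 6 libraries. Of these 22.5% were called, and 44.7% of the calls were rises. Among the 6381 features with a value that was not whole, 20.1% were called and 52.8% of the calls were rises. The difference between these shares was not tested.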
